A study of Mus musculus with 6 samples.

Results

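The genes of the constitutive proteasome were compared between senescent and healthy mouse hepatocytes. The set holds the protein-coding genes whose symbol starts with Psma, Psmb, Psmc, Psmd, Psme or Psmg and a digit, without Psmb8, Psmb9 and Psmb10, and with at least 10 counts over the 6 libraries. These were 45 of the 32061 genes listed. Psmb11 had 4 counts and was left out. Of them, 44 encode proteasome subunits, activators or assembly chaperones, and 32 of these are subunits of the core or regulatory particle. Psmc3ip was taken in by its symbol, encodes a cofactor of meiotic recombination and is no proteasome subunit. By role there were 8 alpha-ring and 7 beta-ring genes of the core particle, 6 base ATPases, 3 other base subunits and 8 lid subunits of the regulatory particle, 5 activator genes and 7 assembly chaperones. The subunits Adrm1 and Sem1, whose symbols do not follow the rule, were read with the related genes.

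The 3 senescent samples came from AhCre+Mdm2fl/fl mice and the 3 healthy ones from AhCre- mice; the Mdm2 alleles of the healthy mice are not given in the labels. AhCre is a Cre recombinase whose promoter is switched on through the aryl hydrocarbon receptor, which is not particular to hepatocytes. Both groups received β-naphthoflavone, an activator of that receptor, at 20 mg/kg for 48 h. Hepatocytes were isolated by collagenase perfusion from animals of 10 to 12 weeks, and polyadenylated RNA was sequenced. Presence of Cre and loss of Mdm2 cannot be told apart in this design. The labels do not state that samples were separate animals, and the p-values rest on the spread among these 6 samples, which may be technical.

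The proteasome is the protease that degrades proteins marked with ubiquitin. Its barrel, the 20S core particle, is built of stacked alpha and beta rings, with the cutting sites inside the beta rings; the 19S regulatory particle binds ubiquitin chains, removes them and uses its ring of ATPases to unfold the substrate and feed it into the barrel. Other activators (PA28, PA200) can cap the core instead, and dedicated chaperones guide assembly. In liver, as in other tissues, these genes are expressed in nearly every cell, and in interferon-exposed cells the immunoproteasome subunits Psmb8, Psmb9 and Psmb10 replace the cutting subunits Psmb5, Psmb6 and Psmb7.

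Libraries held 29992707 to 32210591 counts in senescent and 28799392 to 33267299 in healthy samples. Values below are CPM, counts relative to a library size scaled by the trimmed mean of M values (TMM), as mean ± SD over n = 3 libraries, and each log2 fold change, senescent minus healthy, has its SE; it was tested with edgeR's quasi-likelihood test and called at a Benjamini-Hochberg adjusted p under 0.05. Scaled to total library size instead, the median over all genes moved to 0.33 on the log2 scale, against 0.01 with TMM, so directions of small changes are relative to the scaling. Counts over the whole of Mdm2, at 476 ± 21.7 CPM in senescent and 21.3 ± 1.96 CPM in healthy libraries, do not separate the deleted exons and so check the deletion neither way. The p53 target Cdkn1a was at 717 ± 60.04 CPM in senescent and 35.6 ± 17.0 CPM in healthy libraries. Over all tested genes 20.4% were called higher and 20.7% lower. Hepatocyte markers were present throughout, and 5 of the 7 fell. Their summed levels were 63815 to 76458 CPM in senescent and 108954 to 128785 CPM in healthy libraries. Markers of other liver cells were also present. The macrophage sum was 214 to 438 CPM in senescent and 87.6 to 237 CPM in healthy libraries (1 of 10 called higher). The stellate cell sum was 23.6 to 35.9 CPM in senescent and 8.83 to 15.3 CPM in healthy libraries (4 of 7 tested rose). All 10 macrophage and all 7 tested stellate cell markers had positive log2 fold changes with TMM, with medians of 0.90 and 1.36. Endothelial markers summed to 112 to 142 CPM in senescent and 98.3 to 122 CPM in healthy libraries (1 of 8 rose), and cholangiocyte markers to 11.4 to 16.3 CPM in senescent and 4.70 to 8.05 CPM in healthy libraries (2 of 4 tested rose). Lymphocyte markers were near 0, at 0.583 to 1.13 CPM in senescent and 0.212 to 1.01 CPM in healthy libraries. The part of these other cells in the results below was not tested, and in bulk samples fewer cells of a type and less RNA per cell cannot be told apart.

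Transcript levels of the proteasome differed little between senescent and healthy hepatocytes. Of the 44 genes tested, 2 rose (Psmc3, an ATPase of the base, and Psme4, which encodes the activator PA200) and 6 fell: the alpha-ring genes Psma5 and Psma7, the beta-ring gene Psmb3, and the assembly chaperones Psmd9, Psmg1 and Psmg3. The other 36 were not called. The 8 called genes are 18.2% of the 44, against 41.1% of the 12949 genes tested in the same fit (20.4% higher and 20.7% lower). The senescent and healthy libraries did not overlap for 24 of the 44 genes (54.5%), against 54.0% of all tested genes, so separation of the libraries was about as frequent as elsewhere.

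The sizes were small. Fitted log2 fold changes ran from -0.93 to 0.50, with a median of -0.18 against 0.01 for all tested genes. Their median size was 0.20, against 0.44 for all tested genes, and their SD was 0.29, against 1.17. None of the 44 was called with a fold change of 2 or more in edgeR's fit, whereas 2251 genes (17.4%) were. The largest change, that of Psmd9, was -0.93 with edgeR, -0.94 with DESeq2 and -0.93 with limma-voom, and 10 of the 44 had an unadjusted p under 0.05. The 95% interval of the fold change lay within 1.5-fold in either direction for 32 of the 44 genes (72.7%), against 25.1% of all tested genes, and within 2-fold for 41 (93.2%), against 56.3%. The 3 genes whose interval went past 2-fold were Psma8, Psmd9 and Psmg3. For the 31 core and regulatory subunits without the testis form Psma8, all 31 intervals lay within 2-fold and 27 within 1.5-fold. The median SE was 0.12 for the proteasome genes and 0.17 for all genes.

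**Figure D1:**
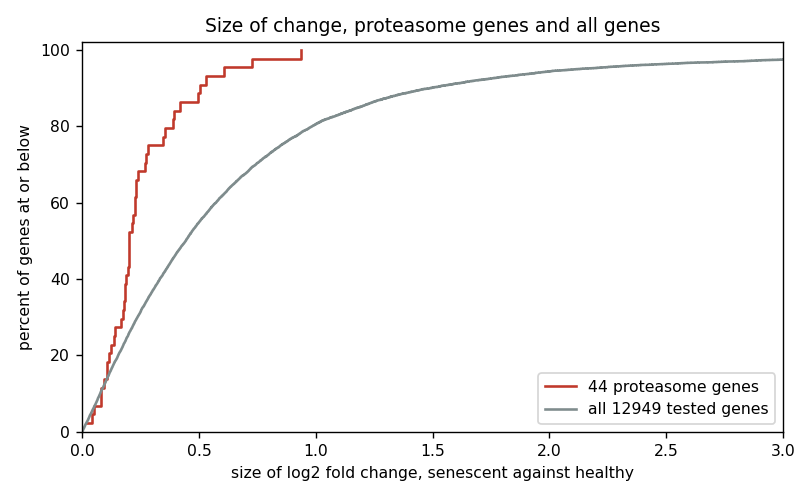
Cumulative percent of genes (vertical axis) by size of the log2 fold change between senescent and healthy libraries (horizontal axis, TMM scaling) for the 44 proteasome genes in red and all 12949 tested genes in grey. The red curve ends at 0.93, while the grey one runs past the right edge of the plot, and the medians are 0.20 and 0.44.

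The sign of most of these small differences depended on the scaling. With TMM 12 of the 44 log2 fold changes were positive and 32 negative. With total library size 36 were positive and 8 negative, 12 genes were called higher and 1 lower (Psmd9), and the median was 0.13. In that fit 37.5% of all genes were called higher and 9.92% lower. Relative to the median of all genes, the median of the proteasome genes stood at -0.19 on the log2 scale with TMM and at -0.20 with total library size. In other fits the share of all genes called was 43.0% with DESeq2, 40.9% with limma-voom, 41.2% with DESeq2-type size factors, 29.3% with no filter, 42.9% with a mean of at least 1 CPM and 41.1% without the 50 most abundant genes. The same 8 members were called in each of them, with Psmc3ip added where there was no filter. Psmc3, Psme4 and Psmd9 kept their call in all 15 alternative settings. Psmg1 and Psmg3 lost theirs only with total library size (log2 fold change -0.29 and -0.42, adjusted p = 0.082 and 0.055).

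**Figure D2:**
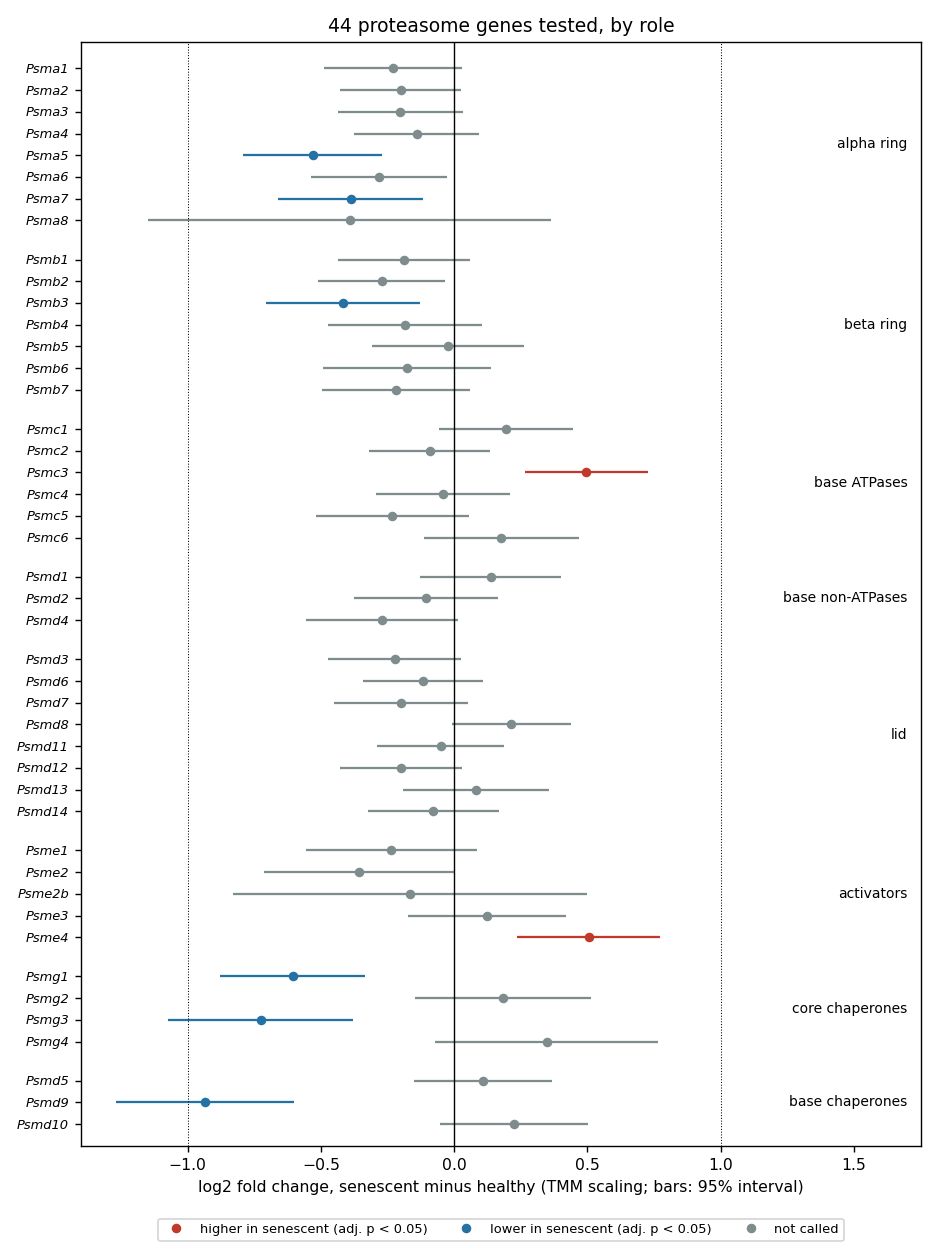
Log2 fold change, senescent minus healthy with TMM scaling (horizontal axis), of the 44 tested genes by role, with 95% intervals as bars and dotted lines at 2-fold. Red points were called higher (Psmc3, Psme4) and blue ones lower (6 genes); with total library size all but 8 values are positive and only Psmd9 among the blue ones is called.

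The alpha ring forms the outer gates of the core. All 8 of its genes had negative log2 fold changes with TMM (median -0.26), of which 2 were called, but 5 of the 8 were positive with total library size (median 0.05) and neither call held. Psma5 (GRCm38 chromosome 3, 108256926 to 108279974) had 50.3, 45.3 and 42.2 CPM in the senescent and 61.8, 69.2 and 68.0 CPM in the healthy libraries. Every senescent library lay below every healthy one, and the gene fell by 0.53 ± 0.11 on the log2 scale (edgeR adjusted p = 0.0071). Psma7 (chromosome 2, 180036374 to 180042433) had 76.8, 67.2 and 65.5 CPM in the senescent and 82.8, 98.4 and 93.0 CPM in the healthy libraries. Here too the groups did not overlap, with a smaller gap, and the gene fell by 0.39 ± 0.12 (edgeR adjusted p = 0.030). Psma5 shares 60 exonic bases with the antisense RNA 1700010K24Rik, for which no counts are listed. With total library size the log2 fold change of Psma5 was -0.22 (adjusted p = 0.15) and that of Psma7 was -0.08 (adjusted p = 0.63). Without senescent replicate 3 neither was called (adjusted p = 0.058 and 0.17), and Psma7 was not called without senescent replicate 2 (0.15) or healthy replicate 2 either.

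The other alpha genes Psma1, Psma2, Psma3, Psma4 and Psma6 had log2 fold changes of -0.28 to -0.14 and were not called. Psma6 came nearest, at -0.28 ± 0.11 (edgeR adjusted p = 0.075). Psma8 replaces Psma7 in the testis. It was barely detected, at 0.525 ± 0.107 CPM in senescent and 0.689 ± 0.0969 CPM in healthy libraries (log2 fold change -0.39, adjusted p = 0.37). Per kb of exon Psma8 stood at 0.243 CPM over all libraries, the lowest of the 44 proteasome genes.

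The beta ring holds the cutting sites. All 7 of its genes had negative log2 fold changes with TMM (median -0.19), and 1 was called; with total library size 6 of the 7 were positive (median 0.12) and the call was lost. The called gene was Psmb3, a subunit without a cutting site (chromosome 11, 97703399 to 97713500), with 59.1, 60.7 and 51.9 CPM in the senescent and 71.4, 87.0 and 71.0 CPM in the healthy libraries. The groups did not overlap, and it fell by 0.42 ± 0.13 (edgeR adjusted p = 0.029). This call was the least stable: it was lost with total library size (-0.11, adjusted p = 0.49), without any single senescent replicate (adjusted p 0.072 to 0.16) and without healthy replicate 2.

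None of the 3 genes of the cutting subunits was called. Psmb5, the chymotrypsin-like subunit, had 80.5, 80.4 and 67.2 CPM in the senescent and 72.0, 85.8 and 73.6 CPM in the healthy libraries. These values interleave; the log2 fold change was -0.02 with a 95% interval of -0.31 to 0.26 (edgeR adjusted p = 0.90). Psmb6, the caspase-like subunit, averaged 106 ± 9.86 CPM in senescent and 120.1 ± 17.8 CPM in healthy libraries, a log2 fold change of -0.18 (adjusted p = 0.33). Psmb7, the trypsin-like subunit, averaged 130.0 ± 8.40 CPM in senescent and 151 ± 16.4 CPM in healthy libraries, a log2 fold change of -0.22 (adjusted p = 0.18). Psmb7 shares 405 exonic bases with Nek6 on the opposite strand, a gene that rose (85.7 ± 8.20 CPM in senescent, 44.6 ± 6.70 CPM in healthy libraries), and whether the counting used strand is not stated. Psmb1, Psmb2 and Psmb4, subunits without a cutting site, had log2 fold changes of -0.27 to -0.18. Among them Psmb2 was nearest to a call (adjusted p = 0.067).

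Psmb5 and Psmb4 were also the most abundant members per kb of exon. On that scale Psmb5 stood at 85.2 CPM, Psmb4 at 76.3 CPM and the ATPase gene Psmc1 at 72.7 CPM over all 6 libraries. Psmb4 had 148, 139 and 131 CPM in the senescent and 141, 180.4 and 153 CPM in the healthy libraries, which overlap (log2 fold change -0.18, edgeR adjusted p = 0.27). Psmc1 had 154, 151 and 145 CPM in the senescent and 136, 138 and 119 CPM in the healthy libraries. These do not overlap, with the senescent ones higher, yet the gene was not called (0.19, adjusted p = 0.19). By the length of the principal transcript, in place of all exons, Psmb6, Psmb4 and Psmb7 led instead, at 142, 126 and 121 CPM per kb, so the order at the top depends on the length used.

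In the base of the regulatory particle, the ring of 6 ATPases unfolds substrates, and 1 of its genes rose. Psmc3 (chromosome 2, 91054009 to 91066369) had 177, 172 and 165 CPM in the senescent and 119, 124 and 122 CPM in the healthy libraries. The groups were well apart, with little spread inside each, and the gene rose 1.41-fold (log2 0.50 ± 0.10, edgeR adjusted p = 0.0056; 0.81 with total library size). Psmc3 shares 215 exonic bases with Slc39a13 on the opposite strand, which had 9.27 ± 0.618 CPM in senescent and 6.62 ± 1.43 CPM in healthy libraries and was not called. The partners of Psmc3 in the same ring stood elsewhere: Psmc1 and Psmc6 at 0.19 and 0.18, Psmc4 at -0.04, Psmc2 at -0.09 and Psmc5 at -0.23 on the log2 scale with TMM, none of them called. With total library size all 6 ATPase genes were positive, and Psmc1 (0.51, adjusted p = 0.0063) and Psmc6 (0.49, adjusted p = 0.018) were called higher beside Psmc3. Within a library, where the scaling cancels, the CPM of Psmc3 over the sum of the other ATPase genes was 0.361, 0.373 and 0.371 in senescent and 0.260, 0.265 and 0.272 in healthy libraries. The ratio thus separated the groups by more than its spread; it was chosen after the values were seen and has no test.

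Among the other base subunits and the lid no gene was called by edgeR, DESeq2 or limma-voom, and 0 of them had an unadjusted p under 0.05 in edgeR's fit. Psmd2, the scaffold of the base, had 209.9, 202 and 186 CPM in the senescent and 196, 216 and 231 CPM in the healthy libraries (log2 fold change -0.11, adjusted p = 0.50). Psmd4, a ubiquitin receptor, had 97.1, 83.9 and 79.6 CPM in the senescent and 96.8, 116 and 101.3 CPM in the healthy libraries (-0.27, adjusted p = 0.12). Both genes overlapped between the groups, by 1 library in the case of Psmd4. Psmd1, the other scaffold, was at 0.14 (adjusted p = 0.37).

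The 8 lid genes ran from -0.22 (Psmd3) to 0.21 (Psmd8) on the log2 scale, with a median of -0.10. Psmd14, the deubiquitinase that cuts ubiquitin off the substrate, averaged 40.5 ± 3.36 CPM in senescent and 42.8 ± 0.929 CPM in healthy libraries (-0.08, adjusted p = 0.58). Psmd8 had 103, 103 and 107 CPM in senescent and 93.2, 89.2 and 87.1 CPM in healthy libraries. Its groups did not overlap, yet it was not called (adjusted p = 0.11). Psmd7, the partner of Psmd14, had 76.8, 65.1 and 69.5 CPM in senescent and 81.3, 84.0 and 77.3 CPM in healthy libraries (-0.20, adjusted p = 0.17), also without overlap. Psmd11, whose product tethers the regulatory particle to the core, was at -0.05, and Psmd6, Psmd12 and Psmd13 were at -0.12, -0.20 and 0.08. Psmd13 shares 342 exonic bases with Sirt3 on the opposite strand, which fell (35.3 ± 7.35 CPM in senescent, 79.1 ± 2.30 CPM in healthy libraries). With total library size all 8 lid genes and all 3 other base genes were positive, and 3 were called higher (Psmd1, Psmd8 and Psmd13).

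Of the activator genes, Psme4 rose and the other 4 were not called with TMM; with total library size Psme3 was called higher as well (0.43, adjusted p = 0.030). Psme4 (chromosome 11, 30771726 to 30880361) encodes PA200, a nuclear activator that caps the core without ATP. It had 134, 138 and 145 CPM in the senescent and 101, 86.4 and 107 CPM in the healthy libraries. Every senescent library lay above every healthy one, a 1.42-fold rise (log2 0.50 ± 0.12, edgeR adjusted p = 0.0098; 0.81 with total library size). Psme1 and Psme2 encode both chains of the interferon-inducible activator PA28 and lie 5911 bases apart on chromosome 14. Psme1 had 100.3, 86.6 and 90.1 CPM in senescent and 118, 119 and 89.2 CPM in healthy libraries (-0.24, adjusted p = 0.21). Psme2 had 73.2, 65.2 and 57.7 CPM in senescent and 92.9, 91.0 and 67.0 CPM in healthy libraries (-0.36, adjusted p = 0.10). For both genes healthy replicate 3 lay among the senescent libraries. Without that replicate both were called lower (-0.37, adjusted p = 0.036, and -0.50, adjusted p = 0.018), as were 21.1% of all genes in that fit. The same library had the lowest macrophage marker sum, 87.6 CPM against 199.9 and 237 CPM in the other healthy libraries and 335, 214 and 438 CPM in the senescent ones; the part of macrophages in these values was not tested.

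Psme3, the nuclear relative of Psme1 and Psme2, averaged 52.7 ± 4.91 CPM in senescent and 48.4 ± 5.67 CPM in healthy libraries (0.12, adjusted p = 0.47). Psme2b, a near copy of Psme2 whose reads could be split between both, was at 2.15 ± 0.314 CPM in senescent and 2.42 ± 0.781 CPM in healthy libraries and is uncertain. Within libraries the CPM of Psme4 over the sum of Psme1 and Psme2 was 0.775, 0.910 and 0.980 in senescent and 0.480, 0.412 and 0.682 in healthy libraries. The lowest senescent ratio was above the highest healthy one, which came from healthy replicate 3.

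Of the 7 assembly chaperones 3 fell and 0 rose (42.9% called), against 20.7% of all tested genes called lower and 41.1% called either way. With TMM 4 of the 7 had positive log2 fold changes, and their median was 0.11. Psmd9, a chaperone of the base ATPase ring, had the largest fall of the 44 genes. It had 18.02, 22.03 and 18.3 CPM in the senescent and 31.3, 42.6 and 37.7 CPM in the healthy libraries. The groups were far apart, and the gene fell by 0.93 ± 0.15 on the log2 scale (edgeR adjusted p = 0.0016; -0.63 with total library size). This count has a limit, the overlap with other genes. The gene model (chromosome 5, 123169413 to 123250131) spans the liver gene Hpd on the opposite strand, with 0 shared exonic bases, and shares 1849 exonic bases with the antisense RNA Gm26745. Hpd encodes an enzyme of tyrosine breakdown and had 686 ± 80.0 CPM in senescent and 2627 ± 256 CPM in healthy libraries, a log2 fold change of -1.94. The libraries were made with a strand-specific kit, but whether the counting used strand is not stated, so reads of antisense transcripts cannot be told apart from those of Psmd9. The other base chaperones Psmd5 and Psmd10 (gankyrin) were at 0.11 and 0.22 with TMM and were not called (adjusted p = 0.47 and 0.17). With total library size both were called higher (0.42, adjusted p = 0.025, and 0.54, adjusted p = 0.0086).

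Psmg1 and Psmg2 form a pair that acts in building the alpha ring, and Psmg3 and Psmg4 form a second such pair. With TMM 1 gene of each pair fell and the other was not called; with total library size Psmg2 (0.49, adjusted p = 0.027) and Psmg4 (0.66, adjusted p = 0.018) were called higher, and Psmg1 and Psmg3 were not called. Psmg1 (chromosome 16, 95979933 to 95990960) had 14.1, 12.3 and 12.3 CPM in the senescent and 20.9, 19.7 and 18.4 CPM in the healthy libraries, without overlap (-0.61 ± 0.12, edgeR adjusted p = 0.0046). Its partner Psmg2 had 9.26, 9.15 and 9.41 CPM in the senescent and 9.37, 7.004 and 8.13 CPM in the healthy libraries, with overlap (0.18, adjusted p = 0.34). Psmg3 (chromosome 5, 139823592 to 139826885) had 4.41, 4.66 and 4.46 CPM in the senescent and 7.95, 7.86 and 6.58 CPM in the healthy libraries, again without overlap (-0.73 ± 0.15, edgeR adjusted p = 0.0062). Its partner Psmg4 had 7.81, 7.11 and 6.86 CPM in the senescent and 6.06, 6.65 and 4.42 CPM in the healthy libraries, higher in every senescent library but not called (0.35, adjusted p = 0.16). Whether partners differed in their change was not tested. Psmg3 shares 280 exonic bases with the protein-coding gene Gm26938 on the same strand, for which no counts are listed. The part of that overlap was not tested. Per length the chaperones were rare, with means over their genes of 6.40 ± 0.288 CPM per kb of exon in senescent and 6.91 ± 0.498 in healthy libraries, against 32.2 ± 1.72 in senescent and 32.0 ± 0.637 in healthy libraries for the regulatory particle.

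The promoters of 4 of the called genes are shown because Nfe2l1 and Nfe2l2, transcription factors known to drive proteasome genes through antioxidant response elements, are among the genes described below. They are Psme4, which rose, and the called genes with the largest falls. Psmc3, the other gene that rose, had no RefSeq window. Each runs 5′ to 3′ from 250 bases before to 10 after the RefSeq start (GRCm38.p6), and capitals mark a match to the element's core, TGACNNNGC, on either strand. Psme4 is chr11:30771525-30771784 (+), Psmd9 chr5:123227940-123228199 (+), Psmg3 chr5:139826885-139827144 (-) and Psmg1 chr16:95990951-95991210 (-).
Psme4: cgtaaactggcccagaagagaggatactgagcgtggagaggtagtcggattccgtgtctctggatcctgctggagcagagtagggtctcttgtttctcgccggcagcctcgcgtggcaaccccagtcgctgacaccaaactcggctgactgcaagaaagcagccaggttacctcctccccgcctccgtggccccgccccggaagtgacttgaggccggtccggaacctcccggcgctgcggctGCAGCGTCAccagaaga
Psmd9: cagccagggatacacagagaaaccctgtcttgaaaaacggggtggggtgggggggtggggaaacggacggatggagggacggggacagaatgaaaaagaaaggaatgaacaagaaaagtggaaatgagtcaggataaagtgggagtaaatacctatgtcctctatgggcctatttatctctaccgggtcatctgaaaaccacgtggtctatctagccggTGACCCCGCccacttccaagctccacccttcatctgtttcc
Psmg3: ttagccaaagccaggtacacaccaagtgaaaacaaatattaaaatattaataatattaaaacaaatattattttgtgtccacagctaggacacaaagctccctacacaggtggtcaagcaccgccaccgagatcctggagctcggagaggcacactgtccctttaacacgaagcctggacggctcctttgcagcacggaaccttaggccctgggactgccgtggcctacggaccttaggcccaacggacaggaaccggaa
Psmg1: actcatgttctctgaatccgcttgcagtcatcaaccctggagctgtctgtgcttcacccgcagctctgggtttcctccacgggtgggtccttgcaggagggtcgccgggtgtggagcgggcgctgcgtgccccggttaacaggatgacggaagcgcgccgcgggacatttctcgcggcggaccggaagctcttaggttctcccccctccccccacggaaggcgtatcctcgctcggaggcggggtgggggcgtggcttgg

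The core motif stood in the windows of Psme4, which rose, and Psmd9, which fell, and not in those of Psmg1 and Psmg3. The Psmd9 window is that of the RefSeq start, 58777 bases from the start of the GENCODE gene model. RefSeq windows of 300 bases matched 37 of the 45 genes, with 40 windows. TGACNNNGC was found in 6 of the 40 (15%; Psmb5, Psmb6, Psmc6, Psmd12, Psmd9 and Psme4), against 12.4% of all 32851 promoter windows. CCAAT, searched on both strands as well, was found in 13 of the 40 (32.5%), against 37.4%. Both shares were near those of all promoters. A match describes letters and is not a bound site.

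Some libraries stood low or high for many of the genes at once. Senescent replicate 3 was the lowest of the 6 libraries for 26 of the 44 tested genes, and healthy replicate 2 the highest for 19. Senescent replicate 1 was the highest for 10, among them Psmc1, Psmc3 and Psmd13, and senescent replicate 2 for 0. The calls of Psma5, Psma7 and Psmb3, the 3 subunits that fell, were the ones lost without senescent replicate 3, and those of Psma7 and Psmb3 were also lost without healthy replicate 2. Over all genes 25.4% were called without senescent replicate 3 and 31.7% without healthy replicate 2. These are also the shallowest libraries of their groups, at 29992707 and 28799392 counts, and the part of depth was not tested.

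**Figure D3:**
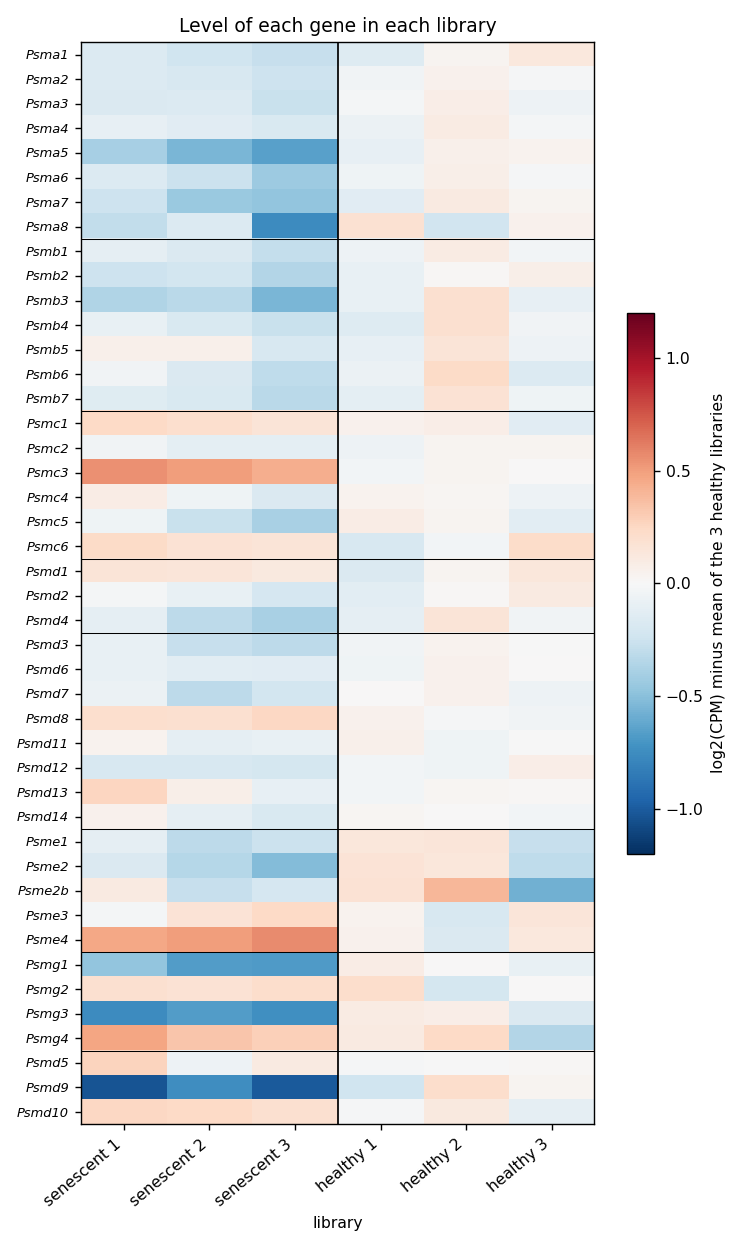
Level of each of the 44 tested genes (rows, ordered by role from the alpha ring to the base chaperones, with lines between roles) in each library (columns), as log2 CPM minus the mean of the 3 healthy libraries, with TMM scaling. Psmc3 and Psme4 are red and Psmd9, Psmg1 and Psmg3 blue in all 3 senescent columns; the pale blue of most alpha- and beta-ring genes, deepest in senescent replicate 3, turns to values above 0 for 11 of the 15 group differences with total library size.

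Summed over genes, the core and the regulatory particle stood differently to each other in the groups. The 15 core genes summed to 1237, 1184 and 1093 CPM in the senescent and 1285, 1494 and 1339.7 CPM in the healthy libraries, without overlap. Scaled to total library size, the log2 ratio of the group means of that sum was 0.082, so its direction depends on the scaling. The 17 regulatory genes summed to 1753, 1641 and 1591 CPM in the senescent and 1616, 1688 and 1668 CPM in the healthy libraries, with overlap. The core sum divided by the regulatory sum of the same library, which no scaling factor alters, was 0.706, 0.722 and 0.687 in senescent and 0.796, 0.885 and 0.803 in healthy libraries. Every senescent ratio lay below every healthy one, with means of 0.705 ± 0.017 in senescent and 0.828 ± 0.050 in healthy libraries. With 3 against 3 libraries an exact permutation test cannot go below p = 0.1, and the ratio was chosen after the values were seen, so it is a description. By mean CPM per kb of exon the core exceeded the regulatory particle 1.15 ± 0.033 times in senescent and 1.35 ± 0.081 times in healthy libraries, and by principal transcript 1.27 ± 0.035 times in senescent and 1.501 ± 0.095 times in healthy libraries. These core means are over all 15 genes, the barely detected Psma8 among them, and would be higher without it. The alpha sum over the beta sum was 0.777 ± 0.018 in senescent and 0.815 ± 0.046 in healthy libraries and overlapped between groups.

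**Figure D4:**
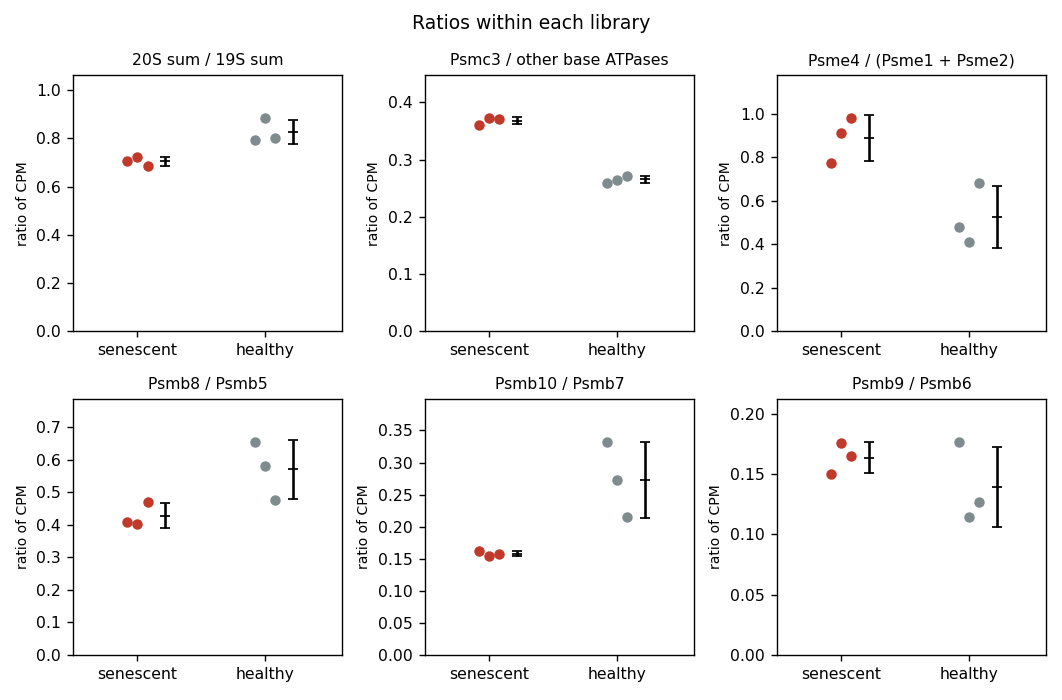
Ratios of CPM within each library, 1 panel a ratio, with a point for each of the 3 senescent (red, left) and 3 healthy (grey, right) libraries and the mean ± SD beside them; all vertical axes start at 0. The core over regulatory sums, Psmb8 over Psmb5 and Psmb10 over Psmb7 are lower in every senescent library. For Psmb8 over Psmb5 the groups nearly touch (0.471 in senescent replicate 3, 0.476 in healthy replicate 3). Psmc3 over the other ATPases and Psme4 over Psme1 plus Psme2 are higher in every senescent library, and Psmb9 over Psmb6 overlaps.

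The immunoproteasome genes were set beside the cutting subunits that they replace. Psmb10 had 22.1, 20.6 and 18.96 CPM in senescent and 46.1, 46.2 and 31.1 CPM in healthy libraries and fell by 1.00 ± 0.17 on the log2 scale (edgeR adjusted p = 0.0021). Psmb8 had 32.9, 32.3 and 31.6 CPM in senescent and 47.2, 49.7 and 35.0 CPM in healthy libraries and fell by 0.45 ± 0.14 (adjusted p = 0.036). The call of Psmb10 held in all alternatives, whereas that of Psmb8 was lost with total library size (-0.13, adjusted p = 0.46), without any single senescent replicate (0.082 to 0.14) and without healthy replicate 1 (0.081) or 2 (0.11). Psmb9 had 17.5, 18.7 and 15.9 CPM in senescent and 20.1, 16.0 and 13.5 CPM in healthy libraries and was not called (0.07, adjusted p = 0.76). Healthy replicate 3 was the lowest healthy library for each of them, as for Psme1 and Psme2. Psmb10 over Psmb7 averaged 0.158 ± 0.0035 in senescent and 0.273 ± 0.059 in healthy libraries, without overlap. Psmb8 over Psmb5 averaged 0.427 ± 0.038 in senescent and 0.570 ± 0.090 in healthy libraries. For the latter ratio the groups nearly touched, with a highest senescent value of 0.471 and a lowest healthy value of 0.476. Psmb9 over Psmb6 overlapped (0.164 ± 0.013 in senescent, 0.140 ± 0.033 in healthy libraries).

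Of the 12 further proteasome genes read, 2 rose and 1 fell (25.0%, against 41.1% of all tested genes), with a median log2 fold change of -0.11 against 0.01 for all genes. Psmf1, whose product PI31 binds the core and inhibits it in vitro, had 94.5, 108 and 94.3 CPM in the senescent and 24.5, 21.3 and 23.0 CPM in the healthy libraries. It rose 4.32-fold (log2 2.11 ± 0.12, edgeR adjusted p = 7.2e-06), a larger change than that of any of the 44 genes. Txnl1, a thioredoxin-like protein bound to the regulatory particle, had 123, 128 and 135 CPM in senescent and 80.0, 87.3 and 86.5 CPM in healthy libraries (0.60 ± 0.10, adjusted p = 0.0025). Zfand5, an activator of the proteasome, had 36.4, 24.3 and 30.6 CPM in senescent and 43.6, 46.3 and 47.4 CPM in healthy libraries (-0.59 ± 0.15, adjusted p = 0.016), a call lost with total library size (-0.27, adjusted p = 0.20) and without senescent replicate 2 (0.071) or 3 (0.079). The subunits Adrm1 and Sem1 and the core chaperone Pomp were not called (-0.13, -0.07 and -0.25; adjusted p = 0.37, 0.70 and 0.093).

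Of the 7 tested genes known to control proteasome transcription, 1 rose and 1 fell (28.6%, against 41.1% of all tested genes; median -0.18). Nfe2l2 (NRF2) had 213, 172 and 186 CPM in senescent and 48.5, 50.8 and 54.1 CPM in healthy libraries and rose by 1.90 ± 0.12 (edgeR adjusted p = 1.7e-05). Nfe2l1 (NRF1), which drives proteasome genes when proteasome activity is low, had 89.8, 77.1 and 73.1 CPM in senescent and 148, 136 and 166 CPM in healthy libraries and fell by 0.90 ± 0.13 (adjusted p = 0.0010). Ddi2, the protease that activates the NRF1 protein, was not called (-0.39, adjusted p = 0.079). Calls were also made among genes of ubiquitin supply and substrate delivery. Nploc4, a cofactor of the segregase VCP, had 98.6 ± 3.98 CPM in senescent and 75.1 ± 9.03 CPM in healthy libraries and rose (0.39, edgeR adjusted p = 0.029). The shuttle factor gene Ubqln4 had 35.0 ± 0.907 CPM in senescent and 46.5 ± 3.08 CPM in healthy libraries and fell (-0.41, adjusted p = 0.014). The autophagy receptor gene Sqstm1 had 330.4 ± 29.5 CPM in senescent and 442 ± 14.7 CPM in healthy libraries and fell (-0.42, adjusted p = 0.025). With total library size neither of these falls was called (adjusted p = 0.49 for Ubqln4 and 0.52 for Sqstm1). The calls of Nploc4, Ubqln4 and Sqstm1 were each lost without senescent replicate 2 and without senescent replicate 3. The call of Nploc4 was also lost without senescent replicate 1 or healthy replicate 1, and those of Nploc4 and Sqstm1 without healthy replicate 2.

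Psmc3ip, the member that is no subunit, had 18, 9 and 15 counts in the senescent and 4, 2 and 4 counts in the healthy libraries and did not pass the filter on low counts. It shares 385 exonic bases with Mlx on the opposite strand, which had 28.5 ± 4.33 CPM in senescent and 25.1 ± 1.88 CPM in healthy libraries. With no filter Psmc3ip was called higher (edgeR adjusted p = 0.046, with 14.9% of all genes called higher in that fit). The other fits that tested it left out senescent replicate 2 or a healthy library, and its edgeR adjusted p ran from 0.025 to 0.081. In those fits it passed the filter only through the senescent libraries, where it is high, so these values are no support for a rise. There 31.7% to 41.4% of all genes were called higher or lower.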

How the data were processed

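Values are whole-number read counts per gene in a table that the authors deposited, not normalised. STAR 2.7.1a, cutadapt 1.16, featureCounts, DESeq2 1.34.0, MultiQC 1.3, FastQC and build GRCm38 are named per the submitters' processing notes; annotation release, strand setting and filters are not given in these sources. The column taken as healthy replicate 2 bears a code that differs from the labels in a single letter. Symbols, biotypes, coordinates and lengths came from GENCODE M21 (GRCm38), which names 99.8% of the IDs. CPM are counts over TMM-scaled library sizes. All genes passing filterByExpr (minimum count 10, minimum total 15) were fitted with edgeR 4.0.16 in R 4.3.3, with no covariate, two-sided, adjusted by Benjamini-Hochberg over 12949 genes. The SE is the size of the log2 fold change over the square root of F. A count of 0 allows 3 counts, or 0.0837 to 0.117 CPM, for counting error only. Alternatives used DESeq2 1.42.0 and limma 3.58.1 (voom), other scalings and filters, the replicate block and left-out libraries. In simulated data 70 of 98 genes changed 2-fold and 99 of 99 changed 4-fold were called, as were 13 of 12601 unchanged genes. Smaller changes, such as those of the proteasome genes, were not simulated. Each simulated gene took the spread typical of its level, not its own, and the groups did not differ in scaling. The shares called there need not hold for the proteasome genes. The bound set on false calls was relaxed after the first run. No pair of libraries looked like copies. Genes named with values were the most significant, or where none was called the most abundant, of each role and related list, and the extremes of level and change; the remaining members follow with their values. Members, roles and lists were chosen with earlier results of these data known, and the ratios after the values were seen. Of the related lists, 1 result is not reported here.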

Additional observations from a re-analysis of the deposited data

How the results depend on the processing

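The same 8 genes were called with DESeq2, limma-voom, DESeq2-type size factors, no filter (with Psmc3ip added), a mean of at least 1 CPM and the 50 most abundant genes removed. Total library size changed the picture: 4861 genes were higher and 1285 lower (79.1% of calls higher, against 49.7% with TMM), 12 proteasome genes were higher and 1 lower, and their median was 0.13. The summed levels, as log2 of senescent over healthy, were then 0.082 for the core (-0.23 with TMM), 0.31 for the regulatory particle (0.00 with TMM), 0.36 for the activators (0.045) and 0.031 for the assembly chaperones (-0.28). At an adjusted p under 0.01, 1570 genes were higher and 1498 lower, with 2 and 4 proteasome genes. With each library left out in turn, 1836 to 2691 genes were higher and 1489 to 2789 lower. In each of these fits 2 proteasome genes, Psmc3 and Psme4, were higher, and 3 to 8 were lower. Psmc3ip, which is no proteasome gene, was also called higher without senescent replicate 2 and without healthy replicate 3. The median over the members tested, with Psmc3ip in the fits that tested it, ran from -0.19 to -0.090. The lowest counts, 1489 genes and 3 proteasome genes lower, came without senescent replicate 3; without senescent replicate 2 or healthy replicate 2 there were 4 proteasome genes lower. The cause was not tested.

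The deviations of same-numbered libraries from their group means had correlations of 0.228, -0.174 and -0.0434. Over all pairs of a senescent and a healthy library they ran from -0.329 to 0.38. The labels state no pairing, and with 3 libraries in each group these correlations cannot settle whether the numbers are one. With the replicate block 2576 genes were higher and 2625 lower, and 2 proteasome genes were higher and 7 lower; the added call was Psme2 (adjusted p = 0.043). Per-length ratios by principal transcript, an alternative chosen after seeing the data, moved the core over the regulatory particle to 1.27 in senescent and 1.501 in healthy libraries, against 1.15 and 1.35 by all exons. Groups of 3, unstated strand handling and the dependence of small differences on scaling limit these results.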
